A study of Mus musculus with 4 samples.

Results

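Amino acid catabolism and alanine-glutamine synthesis were followed in gastrocnemius muscle through 34 genes, all found by name among the 22252 gene names of the deposited tables. They are *Klf15*, a transcription factor, 21 genes of branched-chain amino acid (BCAA) catabolism from *Bcat2* to *Mcee*, and 12 genes of alanine, aspartate, glutamine, asparagine, proline, and ornithine metabolism. The list was drawn up by gene function, with earlier results of these data known.

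RNA-seq was done on 4 groups of 7-week-old male C57BL/6J mice, and RNA of 3 mice was pooled into 1 library per group. Lean GRf/f mice carried floxed alleles of the glucocorticoid receptor gene *Nr3c1* without Cre and had functional leptin genes. Lean GRmKO mice carried the same floxed alleles with Cre driven by the promoter of *Acta1*, the skeletal actin gene, which directs deletion of the receptor (GR) to muscle fibers. Obese GRf/f (*ob/ob* GRf/f) and *ob/ob* GRmKO mice had these genotypes and lacked leptin (Lepob/ob). All 4 groups thus carried floxed GR alleles, and no group had wild-type GR alleles or Cre without floxed GR. With 1 pooled library per group there are no replicates, the variation between mice is unknown, and no P value was computed.

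Values are given as CPM, in which the expected count of a gene is divided by the total of its library and multiplied by 1000000. Library totals ranged from 19897754 to 20959781 expected counts, with 45.1% to 48.1% of each in its 50 most abundant genes. A count of 3 equals from 0.143 to 0.151 CPM. Intervals in parentheses are 95% intervals from the counts and cover counting error only. They are exact for levels and for single changes, and use a normal approximation for differences between changes. A difference of at least 1.5-fold was used as the mark of a change, and counts of members past that mark are set beside the share of all genes past it. The 11272 genes with a mean of at least 50 expected counts served as that background, and all 34 members were among them.

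Muscle takes up leucine, isoleucine, and valine and moves their amino groups to glutamate by way of the transaminase BCAT2, after which the branched-chain ketoacid dehydrogenase (BCKDH) complex and a chain of mitochondrial enzymes break down the carbon skeletons. The amino groups leave muscle mainly as alanine, made by alanine transaminases, and as glutamine, made by glutamine synthetase. Glucocorticoids are known to favor this flow during fasting, and KLF15 and glutamine synthetase are well-known products of glucocorticoid-induced genes in muscle.

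The sequences before the start sites of 5 members are shown. The first 4 were past 1.5-fold lower without GR on at least 1 background, and of these the first 3 share 1 motif. *Prodh*, which was also lower without GR, held no match to any motif searched and is not shown, since its RefSeq start site lies inside the gene as annotated here. Of the 5 members past 1.5-fold that have a promoter here, 3 thus held the motif, a count made after their values were known. Of all members with a promoter, 6 (19.4%) held it, and of all promoters 9.05%. *Klf15* is the regulator of the list, and neither it nor *Aldh18a1* held a match to any motif searched. RefSeq promoters of GRCm38.p6 were matched for 31 of the 34 members, with *Gpt*, *Acat1*, and *Dbt* left without one. Some genes have more than 1, so that these members have 35 promoters. Each line gives the 250 bases before the start site, 5′ to 3′ in the direction of the gene, and capitals mark a match to CCCCACCC, a C-rich box of the kind that Krüppel-like factors bind, on either strand. *Glul* encodes glutamine synthetase and is shown at chr1:153899679-153899928 on the plus strand. *Gpt2* encodes the mitochondrial alanine transaminase and is shown at chr8:85492326-85492575 on the plus strand. *Oat* encodes ornithine aminotransferase and is shown at chr7:132576399-132576648 on the minus strand. *Aldh18a1* encodes the enzyme that starts proline synthesis from glutamate and is shown at chr19:40588464-40588713 on the minus strand. *Klf15* is shown at chr6:90462326-90462575 on the plus strand.
Glul: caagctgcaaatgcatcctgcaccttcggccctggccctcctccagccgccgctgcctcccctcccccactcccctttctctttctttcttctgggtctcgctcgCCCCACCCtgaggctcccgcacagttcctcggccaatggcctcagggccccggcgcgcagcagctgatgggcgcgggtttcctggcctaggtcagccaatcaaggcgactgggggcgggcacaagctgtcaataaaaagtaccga
Gpt2: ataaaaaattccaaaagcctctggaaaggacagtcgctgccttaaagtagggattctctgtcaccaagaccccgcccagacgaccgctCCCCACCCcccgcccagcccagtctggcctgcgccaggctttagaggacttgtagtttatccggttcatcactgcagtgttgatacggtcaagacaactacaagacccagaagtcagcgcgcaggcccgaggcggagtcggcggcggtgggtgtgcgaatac
Oat: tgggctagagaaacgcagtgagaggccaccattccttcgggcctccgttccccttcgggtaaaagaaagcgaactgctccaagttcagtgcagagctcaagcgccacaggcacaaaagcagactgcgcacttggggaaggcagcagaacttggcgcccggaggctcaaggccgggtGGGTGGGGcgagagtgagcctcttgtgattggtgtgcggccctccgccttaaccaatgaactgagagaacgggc
Aldh18a1: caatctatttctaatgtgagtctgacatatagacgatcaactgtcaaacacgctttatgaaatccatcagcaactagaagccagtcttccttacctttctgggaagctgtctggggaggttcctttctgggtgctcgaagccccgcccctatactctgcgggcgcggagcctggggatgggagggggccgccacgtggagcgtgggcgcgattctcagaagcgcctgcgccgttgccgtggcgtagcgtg
Klf15: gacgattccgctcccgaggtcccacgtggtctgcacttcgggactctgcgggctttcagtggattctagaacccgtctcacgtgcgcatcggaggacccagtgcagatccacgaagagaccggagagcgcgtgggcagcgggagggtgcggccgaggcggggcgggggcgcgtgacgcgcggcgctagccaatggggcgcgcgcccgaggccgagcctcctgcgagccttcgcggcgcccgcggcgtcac

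The C-rich box lay from 145 to 138 bases before the start of *Glul*, from 162 to 155 before that of *Gpt2*, and from 74 to 67 before that of *Oat*. It was also found before *Ivd*, *Mccc1*, and *Hsd17b10*, so that 6 of the members' 35 promoters (17.1%) held it, against 9.05% of 32851 promoters of the same length. No member held the core of a GR binding element, searched as GNACA and TGTNC 3 bases apart, which 0.387% of all promoters held. The letters AGAACA, a single arm of that element that a core match can contain, were found in 4 of the 35 promoters (11.4%, against 16.1% of all), those of *Bckdhb*, *Bckdk*, *Pccb*, and *Asns*. TGATGNAAN, the motif of the amino acid response factor ATF4, was found in 3 (8.57%, against 3.44% of all), those of *Got1*, *Asns*, and *Pycr1*. All motifs were searched on both strands, and none of the matches to different motifs overlapped. A match is a description of these letters in this window only.

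*Nr3c1* RNA was at 125 CPM in lean GRf/f and 67.0 CPM in lean GRmKO mice, and at 102 CPM in *ob/ob* GRf/f and 39.1 CPM in *ob/ob* GRmKO mice. It was thus 1.86-fold lower with Cre in lean and 2.60-fold lower in *ob/ob* muscle, although counts over the whole gene do not measure the loss of the deleted exon. *Fkbp5*, a classical GR target, was 3.89-fold and 4.06-fold lower. The tissue label was checked on 6 skeletal muscle markers, including *Acta1*, *Ckm*, and *Myh1*, which summed to between 59043 and 67332 CPM. Most of this sum was *Acta1*, at 39118 to 43733 CPM. Of the 6 markers, 3 (*Myh1*, *Myh2*, and *Ttn*) were past 1.5-fold higher with obesity in both genotypes. The median log2 changes of the 6 with obesity were 0.50 in GRf/f and 0.59 in GRmKO mice. The sum of 4 liver genes was between 5.42 and 25.7 CPM and highest in *ob/ob* GRmKO. The groups also differed in other markers. Of 9 slow fiber markers, 9 were past 1.5-fold higher with obesity in both genotypes, and their sum went from 581 CPM in lean GRf/f to 1679 CPM in *ob/ob* GRmKO. In GRmKO against GRf/f mice, 3 of the 9 were past 1.5-fold higher in lean and 4 in *ob/ob* muscle, with medians of 0.43 and 0.50 on the log2 scale. Of 6 fast IIb fiber markers, 0 were past 1.5-fold lower in any comparison, and 1, *Myh4*, was higher with obesity in GRmKO mice. The fast marker sum was 57053 CPM in lean GRf/f and 68729 CPM in *ob/ob* GRmKO. The 5 erythroid markers summed to 2228 and 2126 CPM in the lean and to 970 and 872 CPM in the *ob/ob* libraries.

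*Glul*, which makes glutamine from glutamate and ammonia, spanned 3.72-fold over the 4 libraries, the widest range in the list after the 3.95-fold of *Prodh* (Ensembl ENSMUSG00000026473.15, chromosome 1 of GRCm38 from 153899944 to 153909723, plus strand, 7 exons). It was at 653 CPM in lean GRf/f mice (643 to 665), 299 CPM in lean GRmKO mice (292 to 307), 325 CPM in *ob/ob* GRf/f mice (317 to 333), and 176 CPM in *ob/ob* GRmKO mice (170 to 181). The level was thus highest in lean mice with GR, lowest in obese mice without it, and between them when only 1 of the 2 conditions was present. Loss of GR went with a 2.18-fold lower level in lean and a 1.85-fold lower level in *ob/ob* muscle. Obesity went with a 2.01-fold lower level with GR and a 1.70-fold lower level without it. The log2 change with loss of GR was smaller in *ob/ob* than in lean muscle by 0.24 (0.17 to 0.31). Of all genes, 1.16% had a change at least as low with loss of GR in lean muscle and 3.46% in *ob/ob* muscle.

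Scaling decided whether 1 of these 4 changes passed 1.5-fold. *Glul* with obesity in GRmKO mice, -0.77 on the log2 scale, came to between -0.56 and -0.77 over 6 other scalings and filters. It stayed past 1.5-fold under 3 of them. Over the same 6, the change with obesity in GRf/f mice came to between -0.89 and -1.01. With loss of GR the change came to between -1.13 and -1.18 in lean and between -0.84 and -0.89 in *ob/ob* muscle. These all stayed past 1.5-fold. The median gene itself was lower with obesity, by -0.11 on the log2 scale in GRf/f and -0.20 in GRmKO mice, and relative to it *Glul* changed by -0.90 and -0.57. With loss of GR, the median gene moved by 0.04 in lean and -0.04 in *ob/ob* muscle. In the annotation *Glul* overlaps *Teddm2* on the other strand.

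*Gpt2*, which forms alanine from pyruvate and glutamate in mitochondria, followed the same order (ENSMUSG00000031700.11, chromosome 8 from 85492576 to 85527560, plus strand, 12 exons). It was at 362 CPM in lean GRf/f (354 to 370), 231 CPM in lean GRmKO (225 to 238), 261 CPM in *ob/ob* GRf/f (254 to 268), and 170 CPM in *ob/ob* GRmKO mice (165 to 176). In GRmKO mice it was 1.56-fold lower in lean and 1.53-fold lower in *ob/ob* muscle, and the changes differed on the log2 scale by 0.03 (-0.05 to 0.11). The change in *ob/ob* muscle lies at the mark, and only 1 of 6 other settings kept it past 1.5-fold, with log2 values between -0.57 and -0.62. With obesity *Gpt2* was 1.39-fold lower in GRf/f and 1.36-fold lower in GRmKO mice, under the mark in both, and -0.37 and -0.25 on the log2 scale relative to the median gene.

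*Gpt* encodes the cytosolic alanine transaminase (ENSMUSG00000022546.5, chromosome 15 from 76695716 to 76699686, plus strand, 11 exons). It was at 15.9 CPM in lean GRf/f (14.3 to 17.8), 11.6 CPM in lean GRmKO (10.1 to 13.2), 22.5 CPM in *ob/ob* GRf/f (20.6 to 24.7), and 10.7 CPM in *ob/ob* GRmKO mice (9.34 to 12.2). In contrast to *Gpt2*, its highest level was in *ob/ob* mice with GR, and the 2 GRmKO libraries had overlapping intervals. Loss of GR went with a 2.11-fold lower level in *ob/ob* and a 1.38-fold lower level in lean muscle, and the log2 changes differed by -0.61 (-0.94 to -0.28). *Gpt* was 1.41-fold higher with obesity in GRf/f mice, a value that passed the mark under edgeR, DESeq2, and median scaling (log2 from 0.61 to 0.62). The ratio of *Gpt2* to *Gpt* counts was 22.7 in lean GRf/f, 20.03 in lean GRmKO, 11.6 in *ob/ob* GRf/f, and 15.9 in *ob/ob* GRmKO.

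**Figure D1:**
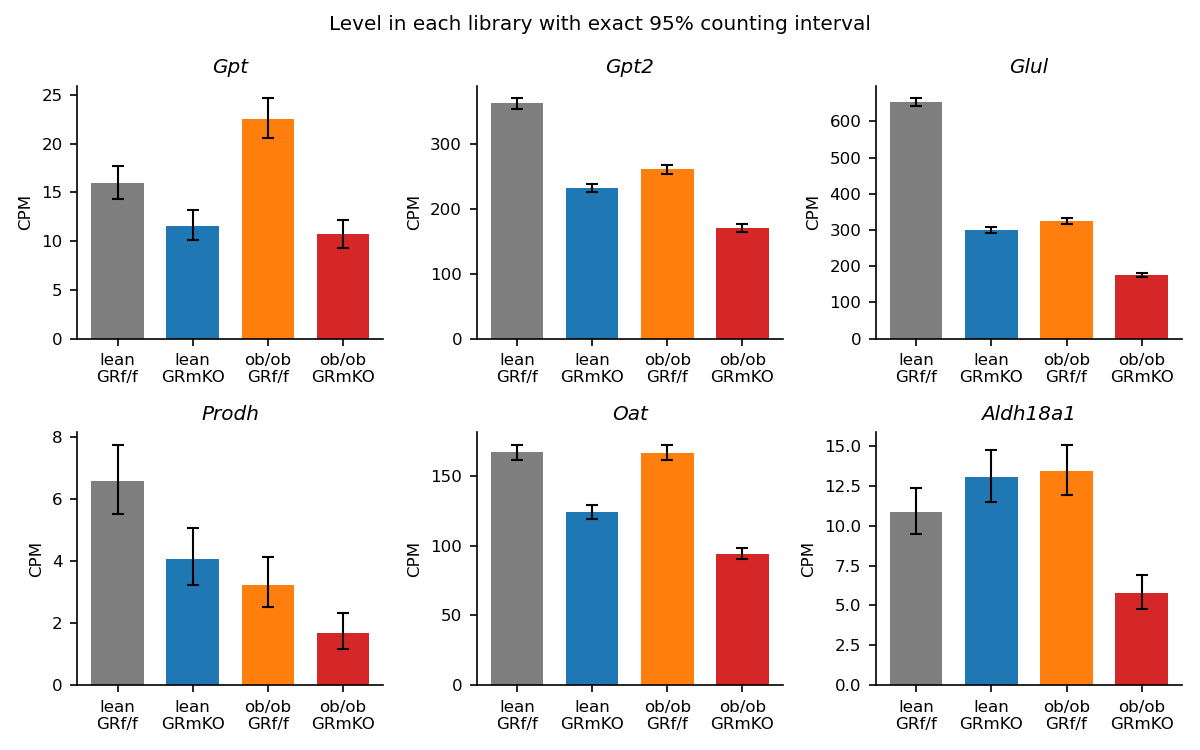
CPM (vertical axes, from 0) of the 6 members past 1.5-fold in at least 1 comparison, in the 4 libraries. Bars are single pooled libraries and error bars exact 95% counting intervals. *Glul*, *Gpt2*, and *Prodh* are highest in lean GRf/f and lowest in *ob/ob* GRmKO, and *Aldh18a1* is low in *ob/ob* GRmKO alone.

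The aspartate transaminases did not follow the alanine transaminases. *Got1*, the cytosolic enzyme, was at 341, 325, 333, and 342 CPM in lean GRf/f, lean GRmKO, *ob/ob* GRf/f, and *ob/ob* GRmKO mice, a span of 1.05-fold. *Got2*, the mitochondrial enzyme of the malate-aspartate shuttle, was at 552 CPM in lean GRf/f (542 to 562), 505 CPM in lean GRmKO (495 to 515), 715 CPM in *ob/ob* GRf/f (704 to 727), and 665 CPM in *ob/ob* GRmKO mice (654 to 676). Both obese libraries were above both lean libraries for *Got2*. The difference was 1.30-fold in GRf/f and 1.32-fold in GRmKO mice, and the latter passed the mark under 3 scalings, with log2 values from 0.59 to 0.61. *Gpt2* counts per *Got2* count were 0.656 in lean GRf/f, 0.459 in lean GRmKO, 0.364 in *ob/ob* GRf/f, and 0.256 in *ob/ob* GRmKO, a ratio within each library that no scaling alters.

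*Glud1*, glutamate dehydrogenase, was at 143, 154, 147, and 145 CPM in the same order and spanned 1.08-fold. *Glul* counts per *Glud1* count therefore went from 4.57 in lean GRf/f to 1.94 in lean GRmKO, 2.21 in *ob/ob* GRf/f, and 1.21 in *ob/ob* GRmKO. *Asns*, asparagine synthetase, was scarce, at 5.50 CPM (4.53 to 6.60), 4.83 CPM (3.91 to 5.89), 5.10 CPM (4.18 to 6.17), and 3.72 CPM (2.94 to 4.65), and its intervals overlapped between neighboring levels. Its largest difference, 1.37-fold lower with loss of GR in *ob/ob* muscle, had a log2 interval from -0.90 to -0.02.

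*Prodh* encodes proline dehydrogenase, the first enzyme of proline breakdown (ENSMUSG00000003526.12, chromosome 16 from 18060357 to 18090203, minus strand, 14 exons). It was at 6.57 CPM in lean GRf/f (5.50 to 7.75), 4.07 CPM in lean GRmKO (3.23 to 5.06), 3.22 CPM in *ob/ob* GRf/f (2.52 to 4.11), and 1.66 CPM in *ob/ob* GRmKO mice (1.16 to 2.32). The order of the groups was that of *Glul*, except that *ob/ob* GRf/f and lean GRmKO changed places with overlapping intervals. Loss of GR went with 1.61-fold and 1.94-fold lower levels in lean and *ob/ob* muscle, and obesity with 2.04-fold and 2.45-fold lower levels in GRf/f and GRmKO mice. Relative to the median gene, the log2 changes with obesity were -0.92 and -1.10. At this depth the log2 interval of the smallest of these changes ran from -1.10 to -0.28, so its size is poorly known. *Prodh* overlaps *Dgcr6* on the other strand.

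*Oat*, which joins ornithine to the glutamate and proline pathways, was at 167 CPM in lean GRf/f (161 to 173), 124 CPM in lean GRmKO (119 to 129), 167 CPM in *ob/ob* GRf/f (161 to 172), and 94.4 CPM in *ob/ob* GRmKO mice (90.3 to 98.7). The gene lies on chromosome 7 from 132557478 to 132576398 on the minus strand (ENSMUSG00000030934.9, 10 exons). The 2 libraries with GR were alike, and both without it were lower, 1.35-fold in lean and 1.77-fold in *ob/ob* muscle. The log2 change with loss of GR was -0.43 in lean and -0.82 in *ob/ob* muscle, a difference of -0.39 (-0.50 to -0.28). *Oat* overlaps *Fgfr2* on the same strand in the annotation, and reads in shared sequence could have been assigned to either.

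*Aldh18a1* had the widest gap in the list between its changes with loss of GR on the 2 backgrounds (ENSMUSG00000025007.13, chromosome 19 from 40550257 to 40588463, minus strand, 19 exons). It was at 10.9 CPM in lean GRf/f (9.51 to 12.4), 13.1 CPM in lean GRmKO (11.5 to 14.8), 13.5 CPM in *ob/ob* GRf/f (11.9 to 15.1), and 5.79 CPM in *ob/ob* GRmKO mice (4.79 to 6.90). One library, *ob/ob* GRmKO, was thus below the other 3, whose intervals overlapped in neighboring pairs. The level was 2.32-fold lower with loss of GR in *ob/ob* muscle and 1.2-fold higher in lean muscle, and the log2 changes differed by -1.48 (-1.88 to -1.08). *Pycr1*, which completes proline synthesis, was at 6.04, 6.79, 6.77, and 5.56 CPM, with a span of 1.22-fold, and *Aldh4a1*, which follows *Prodh* in proline breakdown, spanned 1.08-fold.

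*Klf15* was at 47.6 CPM in lean GRf/f (44.7 to 50.7), 38.0 CPM in lean GRmKO (35.3 to 40.8), 35.9 CPM in *ob/ob* GRf/f (33.4 to 38.6), and 31.9 CPM in *ob/ob* GRmKO mice (29.6 to 34.5). The level in lean GRf/f was above the other 3, whose neighbors overlapped. Loss of GR went with a level 1.25-fold lower in lean and 1.12-fold lower in *ob/ob* muscle, and obesity with one 1.33-fold lower in GRf/f and 1.19-fold lower in GRmKO mice. None of these reached 1.5-fold, and relative to the median gene the log2 changes with obesity were -0.30 and -0.05. Of all genes, 9.11% had a change at least as low with loss of GR in lean muscle and 33.1% in *ob/ob* muscle. *Klf15* lies on chromosome 6 from 90462576 to 90475238 on the plus strand (ENSMUSG00000030087.11, 3 exons).

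None of the 21 genes of BCAA catabolism was past 1.5-fold in any of the 4 comparisons. The ratio of the highest to the lowest of the 4 libraries ran from 1.06 for *Acat1* to 1.39 for *Mcee*, with a median of 1.2, whereas the median over all genes was 1.43. With loss of GR the median log2 change of the 21 genes was 0.00 in lean and 0.03 in *ob/ob* muscle. With obesity it was -0.15 in GRf/f and -0.10 in GRmKO mice, which is -0.04 and 0.10 relative to the median gene. Summed over the 21 genes, the log2 changes were -0.12 and -0.06 with obesity and -0.01 and 0.05 with loss of GR.

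*Bcat2*, the mitochondrial BCAA transaminase, was at 47.2 CPM in lean GRf/f (44.3 to 50.3), 52.2 CPM in lean GRmKO (49.1 to 55.5), 39.4 CPM in *ob/ob* GRf/f (36.7 to 42.1), and 43.6 CPM in *ob/ob* GRmKO mice (40.8 to 46.6). The lean libraries were above the obese ones, 1.2-fold in each genotype (-0.16 and -0.06 on the log2 scale relative to the median gene), and the GRmKO libraries were 1.11-fold above the GRf/f libraries on both backgrounds. *Bckdha*, the catalytic E1α subunit of BCKDH, was at 138 and 134 CPM in lean and 115 and 119 CPM in *ob/ob* GRf/f and GRmKO mice. Its E1β, E2, and E3 partners *Bckdhb*, *Dbt*, and *Dld* spanned 1.17-fold, 1.14-fold, and 1.16-fold over the 4 libraries.

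BCKDH is switched off by the kinase BCKDK and on by the phosphatase PPM1K. *Bckdk* was at 107 CPM in lean GRf/f (102 to 111), 108 CPM in lean GRmKO (104 to 113), 89.3 CPM in *ob/ob* GRf/f (85.3 to 93.5), and 111 CPM in *ob/ob* GRmKO mice (107 to 116). The *ob/ob* GRf/f library was below the other 3, and loss of GR went with a 1.25-fold higher level in *ob/ob* and a 1.01-fold higher level in lean muscle. The log2 changes differed by 0.30 (0.18 to 0.42). *Ppm1k* was at 11.8 CPM (10.4 to 13.4), 13.5 CPM (11.9 to 15.2), 9.93 CPM (8.62 to 11.4), and 11.1 CPM (9.69 to 12.6) in the same order, with overlapping neighbors. There were 9.03, 8.01, 8.99, and 10.03 *Bckdk* counts per *Ppm1k* count.

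In the leucine branch, *Ivd*, *Mccc1*, *Mccc2*, and *Auh* had log2 changes between -0.16 and 0.29 with loss of GR in lean muscle and between -0.21 and 0.09 in *ob/ob* muscle. *Mccc2*, a subunit of methylcrotonyl-CoA carboxylase, was at 26.8, 32.9, 32.8, and 28.3 CPM in lean GRf/f, lean GRmKO, *ob/ob* GRf/f, and *ob/ob* GRmKO mice, so its log2 change with loss of GR was 0.29 in lean and -0.21 in *ob/ob* muscle. Its partner *Mccc1* was at 27.5, 24.6, 25.2, and 24.0 CPM. In the valine branch, *Hibch*, *Hibadh*, and *Aldh6a1* spanned at most 1.13-fold, and *Acad8*, isobutyryl-CoA dehydrogenase, was 1.29-fold higher with obesity in GRmKO mice. In the isoleucine branch, *Acadsb* was 1.23-fold lower with obesity in both genotypes, and *Hsd17b10* was 1.19-fold higher with loss of GR in lean muscle. Of the genes of the propionyl-CoA steps, *Mcee* was 1.27-fold and 1.39-fold lower with obesity in GRf/f and GRmKO mice. *Pcca* was 1.23-fold lower with loss of GR in lean muscle, and *Pccb* spanned 1.11-fold. Relative to the median gene, the log2 changes with obesity in GRf/f and GRmKO mice were -0.20 and -0.10 for *Acadsb* and -0.24 and -0.28 for *Mcee*, and that of *Acad8* in GRmKO mice was 0.56.

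**Figure D2:**
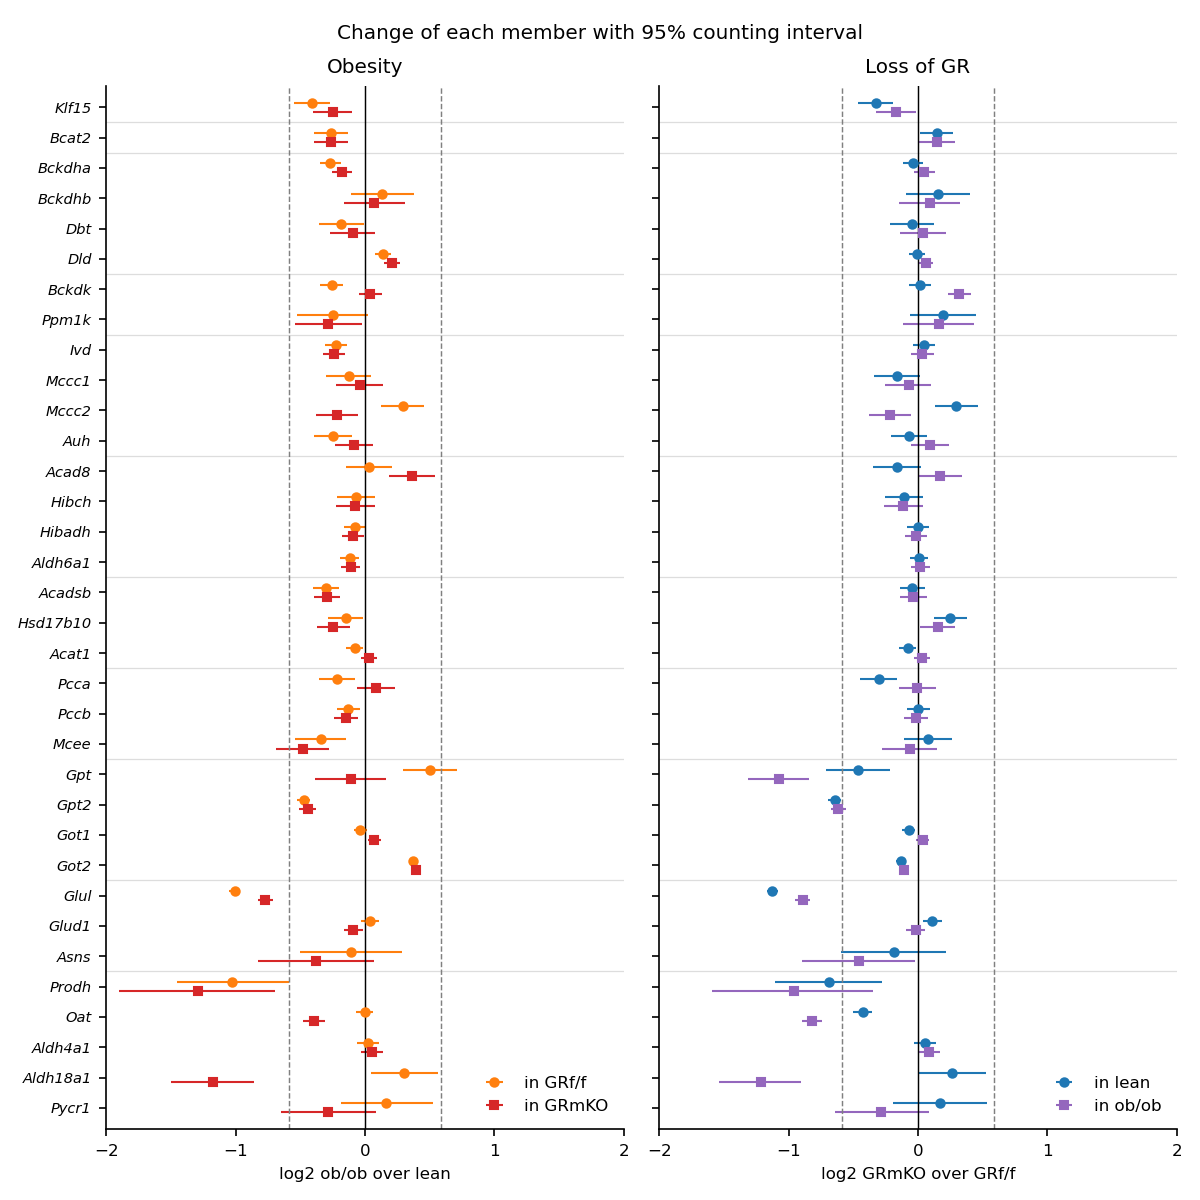
Log2 changes of the 34 members with obesity (left) and with loss of GR (right), with 95% counting intervals, grouped by role from the regulator at the top to proline and ornithine metabolism at the bottom. Dashed lines mark 1.5-fold. The 21 genes from *Bcat2* to *Mcee* lie between the dashed lines in all 4 comparisons, and the points outside belong to *Gpt*, *Gpt2*, *Glul*, *Prodh*, *Oat*, and *Aldh18a1*.

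Counted over the whole list, 6 of the 34 members were past 1.5-fold in at least 1 comparison, and all 6 in the direction of a lower level. Of all genes, 37.8% were past 1.5-fold in at least 1 comparison, and 29.4% in the direction of a lower level. The members' share is thus below this background, which was not matched to them by abundance. With loss of GR in lean muscle, 3 members (*Gpt2*, *Glul*, and *Prodh*) were lower, where 3.89% of all genes were, and 0 were higher, where 5.23% of all genes were. With loss of GR in *ob/ob* muscle, 6 were lower and 0 higher, against 8.48% and 4.69% of all genes. With obesity in GRf/f mice, 2 (*Glul* and *Prodh*) were lower and 0 higher, against 11.7% and 5.43%. With obesity in GRmKO mice, 3 (*Glul*, *Prodh*, and *Aldh18a1*) were lower and 0 higher, against 19.9% and 5.02%. The 2 and 3 members lower with obesity are thus no larger a share of the list than the background. Other scalings shifted this background, and with DESeq2 size factors 7.98% of all genes were lower and 8.12% higher with obesity in GRf/f mice, and 11.6% lower and 10% higher in GRmKO mice. The median member changed by -0.04 and -0.02 on the log2 scale with loss of GR in lean and *ob/ob* muscle, and by -0.12 and -0.13 with obesity in GRf/f and GRmKO mice, which is -0.02 and 0.07 relative to the median gene.

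The comparisons in lean and in *ob/ob* muscle share no library. Lower past 1.5-fold in both losses of GR were 3 members, *Gpt2*, *Glul*, and *Prodh*, and 162 of all genes (1.44%). Lower past 1.5-fold with obesity in both genotypes were 2 members, *Glul* and *Prodh*, and 767 of all genes (6.80%). The comparison of *Gpt2* in *ob/ob* muscle and that of *Glul* in GRmKO mice are those that fell short of the mark under other scalings. For 11 members the difference between the changes with loss of GR on the 2 backgrounds had a counting interval that left out 0, and for 2 of them, *Gpt* and *Aldh18a1*, it came to at least 1.5-fold. Of the 11141 genes tested with counts above 0 in all 4 libraries, 42.4% had such an interval and 18.1% a difference of at least 1.5-fold, so both counts are below the background. With single libraries, none of these differences could be tested against the variation between mice.

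**Figure D3:**
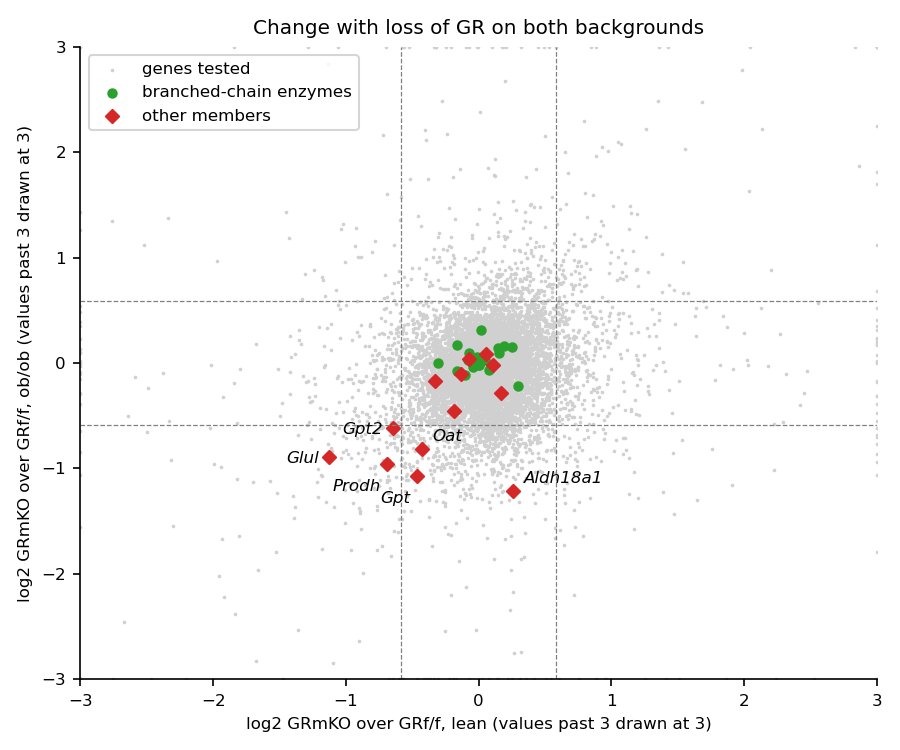
Log2 change with loss of GR in lean muscle (horizontal axis) against that in *ob/ob* muscle (vertical axis) for the 11272 genes tested (grey), the 21 genes of BCAA catabolism (green circles), and the other 13 members (red diamonds). Dashed lines mark 1.5-fold. *Gpt2*, *Glul*, and *Prodh* lie below the mark on both axes, and the green circles lie within it on both.

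Markers of fat cells moved with these members. The 7 adipocyte markers, *Adipoq*, *Plin1*, *Cfd*, *Fabp4*, *Cidec*, *Lep*, and *Retn*, summed to 996 CPM in lean GRf/f, 645 CPM in lean GRmKO, 573 CPM in *ob/ob* GRf/f, and 354 CPM in *ob/ob* GRmKO mice. One of them, *Cfd*, the adipsin gene, was at 267, 145, 14.4, and 8.91 CPM in this order, and the other 6 summed to 729, 500, 558, and 346 CPM. With *Cfd* the libraries stood in the order of *Prodh*, and without it in that of *Glul* and *Gpt2*. *Fabp4* was the largest single part of both sums in every library, at 483, 373, 308, and 211 CPM in the same order. Both sums, and their fall with obesity, thus lean on this 1 gene. All 7 were lower with loss of GR on both backgrounds, 6 past 1.5-fold in lean and 5 in *ob/ob* muscle, and none was at 0 in any library. Their summed level was lower by -0.63 and -0.69 on the log2 scale with loss of GR and by -0.80 and -0.86 with obesity. Without *Cfd*, left out after its values were seen, these were -0.54 and -0.69 with loss of GR and -0.38 and -0.53 with obesity. Single markers did not all follow the sum, since *Adipoq*, the adiponectin gene, was at 81.4, 48.3, 80.4, and 44.4 CPM and *Lep*, the leptin gene, was higher in both obese libraries. Macrophage markers summed to 346 CPM in lean GRf/f, 447 CPM in lean GRmKO, 223 CPM in *ob/ob* GRf/f, and 167 CPM in *ob/ob* GRmKO mice, and endothelial markers to 447, 524, 356, and 317 CPM. The part of these cells in the levels of *Glul*, *Gpt2*, and *Prodh* was not tested. In pooled whole muscle, fewer cells of a type and less RNA per cell cannot be told apart.

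**Figure D4:**
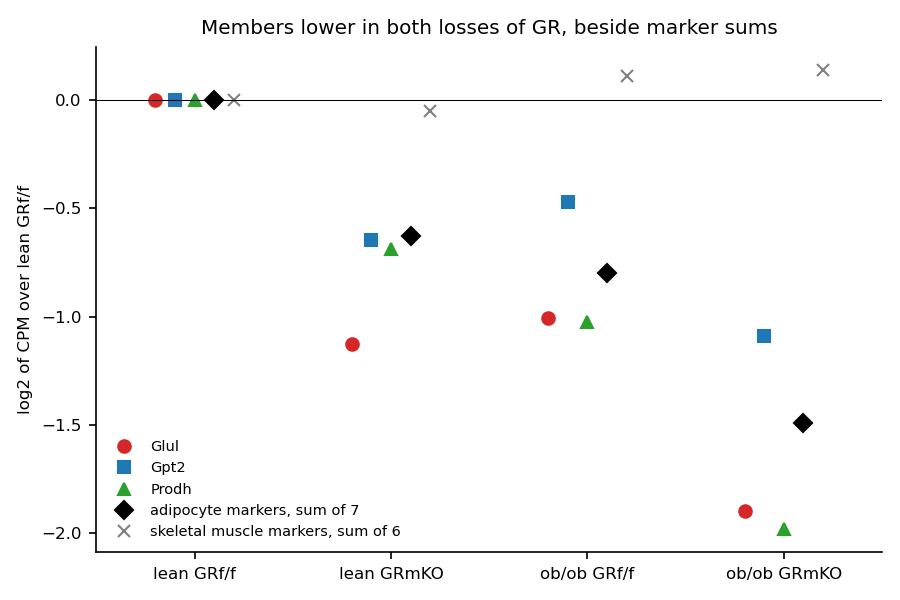
Log2 of CPM relative to lean GRf/f (vertical axis) in the 4 libraries for *Glul*, *Gpt2*, *Prodh*, and the summed CPM of 7 adipocyte and 6 skeletal muscle markers. Each point is 1 pooled library, and points of a library are set side by side. The adipocyte sum lies below lean GRf/f in the other 3 libraries, as do the 3 members, and the skeletal muscle sum is between 59043 and 67332 CPM in all 4. Of the 6 skeletal muscle markers, 3 were past 1.5-fold higher with obesity in both genotypes.

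Genes of mitochondrial content gave no such pattern. The 16 genes of this list, such as *Cs* and *Sdha*, had median log2 changes of 0.03 and 0.06 with obesity and -0.03 and -0.01 with loss of GR, and none was past 1.5-fold. Relative to the median gene, the medians with obesity were 0.14 and 0.26. Their sum was between 12470 and 13493 CPM in the 4 libraries. This list and the BCAA enzymes, which are mitochondrial too, both stayed within the mark. *Gpt2*, whose enzyme is mitochondrial as well, was past the mark with loss of GR in lean muscle.

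Levels of different members were compared per kilobase (kb) of the 1 transcript that the tables list for each gene. In lean GRf/f mice, *Glul* was the most abundant member at 234 CPM per kb, followed by *Got2* at 218, *Got1* at 166, *Gpt2* at 99.4, and *Oat* at 77.6 CPM per kb. In *ob/ob* GRmKO mice the order was *Got2* at 263, *Got1* at 166, *Dld* at 89.1, and *Glul* at 62.9 CPM per kb, with *Gpt2* in place 10 at 46.8 and *Oat* in place 11 at 43.9 CPM per kb. The lowest were *Ppm1k* at 2.13 CPM per kb in lean GRf/f and *Prodh* at 0.814 CPM per kb in *ob/ob* GRmKO mice. Between the genes for alanine transaminase, *Gpt2* exceeded *Gpt* per kb in all 4 libraries, and of the BCKDH genes *Dld*, whose product also serves other dehydrogenases, and *Bckdha* exceeded *Bckdhb* and *Dbt*.

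**Figure D5:**
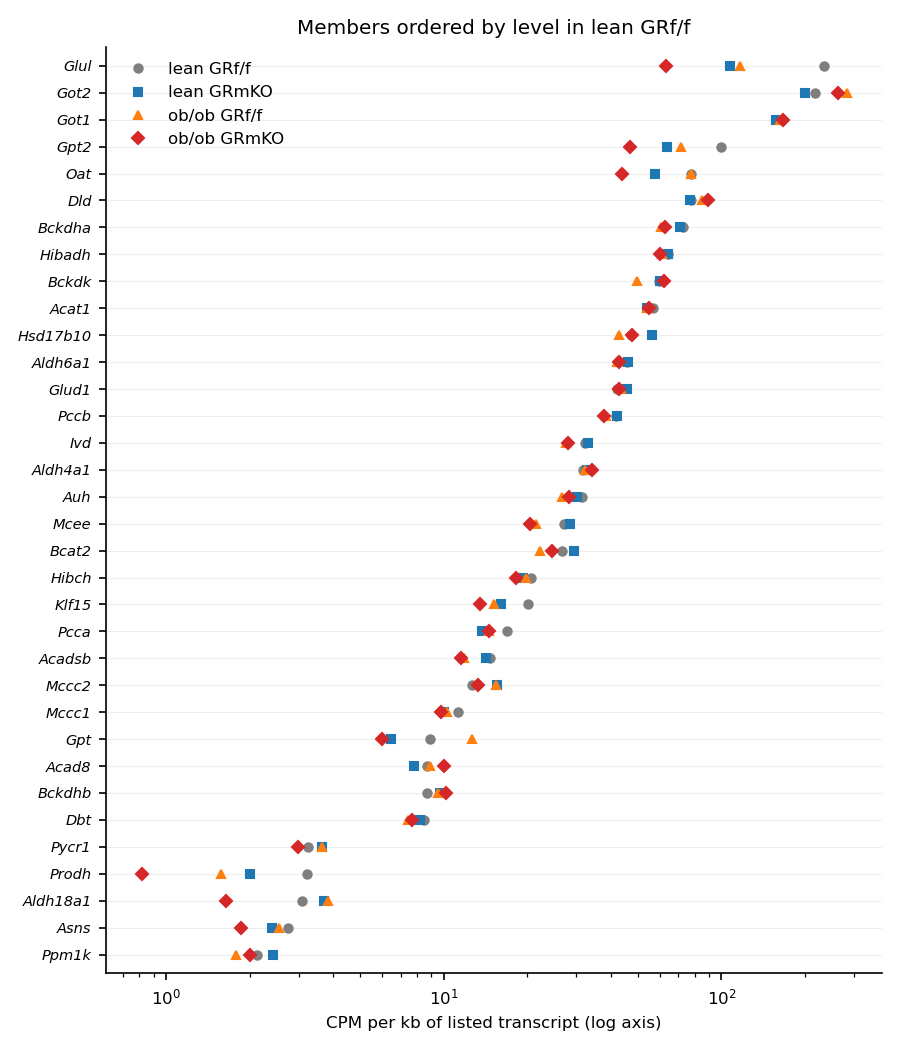
CPM per kb of listed transcript (horizontal log axis) of the 34 members in the 4 libraries, ordered by the level in lean GRf/f. Most members have 4 symbols close together, whereas *Glul*, *Gpt2*, *Oat*, *Prodh*, and *Aldh18a1* have *ob/ob* GRmKO (red diamonds) apart at the left.

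Among other genes of amino acid metabolism, 49 were in the tables and 38 had enough counts. With loss of GR, 2 were past 1.5-fold higher and 1 lower in lean muscle, and 1 higher and 3 lower in *ob/ob* muscle. With obesity, 1 was higher and 2 lower in GRf/f, and 0 higher and 2 lower in GRmKO mice. As shares of the 38, these run from 0% to 5.26% higher and from 2.63% to 7.89% lower, each near or below the share of all genes given above. *Psat1*, the aminotransferase of serine synthesis, was lower in both losses of GR. It was at 7.53 CPM in lean GRf/f, 3.85 CPM in lean GRmKO, 4.27 CPM in *ob/ob* GRf/f, and 2.72 CPM in *ob/ob* GRmKO mice, with log2 changes of -0.97 in lean and -0.65 in *ob/ob* muscle. *Aldh9a1*, an aldehyde dehydrogenase of carnitine and polyamine metabolism, was lower with obesity in both genotypes, at 16.5 and 15.7 CPM in lean and 8.96 and 7.67 CPM in *ob/ob* GRf/f and GRmKO mice. The median log2 changes of the 38 genes were 0.08 and 0.05 with loss of GR in lean and *ob/ob* muscle and -0.06 and -0.05 with obesity in GRf/f and GRmKO mice, the latter 0.04 and 0.14 relative to the median gene.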

How the data were processed

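RNA of gastrocnemius muscle, 1 library per group from 3 pooled mice, was sequenced by the authors as 100-bp paired-end reads. The authors quantified GENCODE protein-coding transcripts (mm10) with Salmon v1.2.1, and gene totals came from tximport (lengthScaledTPM) in R v3.5.0. The deposited values are expected counts per gene name, not normalized between libraries. Of duplicated names, the authors kept the entry with the largest total.

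Counts were divided by the library total to give CPM. Genes with a mean of at least 50 expected counts over the 4 libraries were compared, and a ratio of at least 1.5 was counted. Poisson intervals of CPM and binomial intervals of ratios were exact at 95%, on rounded counts; intervals of differences between changes used the normal approximation to log counts. All cover counting error only. NOISeq-sim, the study's method for data without replicates, was not used because it draws simulated replicates. The members and lists were chosen with earlier results of these data known. Values were given in every library for members past 1.5-fold in at least 1 comparison and for main members of the roles (15 members in all). No main member was taken from the leucine, valine, or isoleucine branch or the propionyl-CoA steps. *Mccc1*, *Mccc2*, and *Pycr1* were given in every library as well. Outside the list, values were given for genes past 1.5-fold the same way in both comparisons of a kind.

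Coordinates and exons are from GENCODE M21 and promoters from RefSeq, both on GRCm38. For *Glul* the RefSeq start lies 15 bases before that of the listed transcript. Alternative scalings were by DESeq2 1.42.0, by edgeR 4.0.16 (TMM), by the upper quartile, by a total that left out the 50 most abundant genes, and relative to the median gene. Other alternatives were counts above 0 in all 4 libraries, a mean of at least 10 counts, and 2-fold in place of 1.5-fold. DESeq2 and edgeR, run in R 4.3.3 with expected counts rounded, gave scaling factors and no test. The rest was computed in Python 3.11.15 with numpy 2.4.6, pandas 2.3.3, and scipy 1.17.1, and figures were drawn with matplotlib 3.10.9. The code was tested on simulated data.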

Additional observations from a re-analysis of the deposited data

Results flagged for a closer look

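*Aldh18a1* had log2 changes of opposite sign in companion comparisons. With loss of GR, its log2 change was 0.26 in lean muscle (0.00 to 0.53) and -1.22 in *ob/ob* muscle (-1.54 to -0.91). With obesity, it was 0.30 in GRf/f mice (0.05 to 0.56) and -1.17 in GRmKO mice (-1.50 to -0.86). The gap is 1.48 on the log2 scale in both cases, by construction the same number, and both rest on the *ob/ob* GRmKO library. The difference was not tested, since each group has 1 library.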

How the results depend on the processing

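Of the 4 counts of members lower and the 4 counts of members higher, those lower with obesity (2 in GRf/f and 3 in GRmKO mice) stayed within 1.5 times under every alternative run. The 3 in GRmKO mice came to 2 at 2-fold and under TMM, DESeq2, and median scaling, and the 6 lower with loss of GR in *ob/ob* muscle to 5 under all 5 scalings. At 2-fold, members lower with loss of GR came to 1 in lean and 2 in *ob/ob* muscle. Members higher with obesity came to 1 in place of 0 under edgeR TMM factors, DESeq2 size factors, and values relative to the median gene, in GRf/f mice (*Gpt*) and in GRmKO mice (*Got2*) alike. The share of all genes higher with obesity in GRmKO mice, 5.02%, ran up to 10% under DESeq2 size factors, and that lower, 19.9%, down to 11.6%. At 2-fold the shares of all genes were between 1.45% and 7.05%, and with genes at low counts kept (a mean of at least 10, or counts above 0 in all 4 libraries) between 6.83% and 24.0%. For the 15 members past 1.5-fold or taken as main members, 271 of the recomputed log2 changes moved by less than their counting interval. The other 89 moved by more, and 0 changed direction among those past 1.5-fold. No paired analysis was possible because each group has 1 library, and for the same reason no library could be left out. Depth limits *Prodh*, *Asns*, *Pycr1*, and *Aldh18a1*, which had the fewest counts, and 1 pool of 3 mice stands behind every value.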

Other observations

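*Aldh9a1* and *Psat1* were not the only genes outside the list past 1.5-fold. *Slc25a44*, the mitochondrial carrier that brings branched-chain amino acids to BCAT2, was at 11.1 CPM in lean GRf/f, 17.9 CPM in lean GRmKO, 22.3 CPM in *ob/ob* GRf/f, and 22.8 CPM in *ob/ob* GRmKO mice. Its log2 change was 1.01 with obesity in GRf/f and 0.35 in GRmKO mice, and 0.69 with loss of GR in lean and 0.03 in *ob/ob* muscle. Lean GRf/f was thus the lowest library for this carrier, whereas the enzymes it feeds stayed within 1.5-fold. *Cdo1*, cysteine dioxygenase, was at 35.9, 28.8, 31.1, and 18.6 CPM in lean GRf/f, lean GRmKO, *ob/ob* GRf/f, and *ob/ob* GRmKO mice, with a log2 change of -0.74 with loss of GR in *ob/ob* muscle. *Phgdh*, which starts serine synthesis ahead of *Psat1*, was at 16.4, 13.9, 16.1, and 10.6 CPM in the same order. Past 1.5-fold higher with loss of GR were also *Asl* in lean and *Gadl1* in *ob/ob* muscle. The log2 change of *Asl* was 0.64 in lean and 0.30 in *ob/ob* muscle, and that of *Gadl1* was -0.10 and 0.65. The genes named here beside *Aldh9a1* and *Psat1* were chosen after their values were seen.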
